A study of Homo sapiens with 2 samples.

Results

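The 8 loci described here belong to the JAK-STAT pathway, through which cytokine receptors signal to the nucleus. They were examined in a map of the histone methyltransferase KMT2D (also called MLL4) in the OCI-LY7 line, which grew from a diffuse large B-cell lymphoma and which the labels class as the germinal centre (GCB) type. Each locus was a fixed window of hg19 around 1 gene, and a listed KMT2D peak was counted as a member when its highest point lay inside a window. The rule used positions only, not peak height or any other measured value. It found 37 member peaks among 24772 listed on chromosomes 1 to 22 and X, or 0.149% of them. The 8 windows were 100 to 230 kb long, reached beyond the genes they are named for, and totalled 1.13 Mb on 5 chromosomes. Peaks were not assigned to genes, and where peaks are described a gene name stands for its window.

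The study holds 1 chromatin immunoprecipitation sequencing (ChIP-seq) library, made with an antibody raised against the N-terminal part of KMT2D, and 1 input library, made with no antibody. Both came from OCI-LY7 cells labelled wt in genotype and fixed with 1% formaldehyde for 10 min, and the labels name no drug or cytokine. One line and 1 ChIP library allow no replicate check and no test between conditions, and the read depth is unknown. Separate values for the input were not analysed here. The labelled cell type was not checked against markers, because a peak list holds no expression values. The list gives each peak a height, a whole number in units the authors' file does not state. It also gives a significance value, read as a log10 p-value, so that more negative is stronger; the member peaks ran from -104 to -15.7. Intervals below are exact 95% intervals that cover counting error over peaks only.

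When a cytokine binds, paired receptor chains bring Janus kinases such as JAK1 together, the kinases phosphorylate the receptor tails, and STAT proteins dock there, become phosphorylated and move to the nucleus. In B cells, interleukin 4 signals through the IL4R chain mainly to STAT6, and interleukin 21, a product of follicular helper T cells, signals through the IL21R chain mainly to STAT3. SOCS1 and SOCS3 are feedback inhibitors whose own genes are induced by STATs, and the phosphatase PTPN1 removes phosphate from Janus kinases. SOCS1, STAT6 and PTPN1 are among the genes known to be mutated in B-cell lymphomas. KMT2D places methyl groups on lysine 4 of histone H3, chiefly at enhancers, so its peaks are read as places where that enzyme was bound or near.

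The sequence of the peaks was not analysed here, since no hg19 genome was used. The promoter table of RefSeq, on the GRCh38.p14 build, held 11 promoters for the 8 genes, each from 250 bases before to 50 bases after a transcription start. Positions on GRCh38.p14 cannot be set beside hg19 peaks, so no promoter was placed relative to a peak. The promoters of the adjoining receptor genes are shown because they lie near opposite ends of the members' range of CG dinucleotides, which are in capitals. IL4R is at chr16:27313724-27314023 and IL21R at chr16:27427021-27427320, both on the plus strand of GRCh38.p14.
IL4R: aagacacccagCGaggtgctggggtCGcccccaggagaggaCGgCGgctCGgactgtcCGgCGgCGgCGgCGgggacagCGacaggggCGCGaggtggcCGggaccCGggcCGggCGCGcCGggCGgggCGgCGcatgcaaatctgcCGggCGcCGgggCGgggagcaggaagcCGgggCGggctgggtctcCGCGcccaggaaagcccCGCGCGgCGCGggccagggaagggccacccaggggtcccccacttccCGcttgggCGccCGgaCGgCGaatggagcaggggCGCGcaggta
IL21R: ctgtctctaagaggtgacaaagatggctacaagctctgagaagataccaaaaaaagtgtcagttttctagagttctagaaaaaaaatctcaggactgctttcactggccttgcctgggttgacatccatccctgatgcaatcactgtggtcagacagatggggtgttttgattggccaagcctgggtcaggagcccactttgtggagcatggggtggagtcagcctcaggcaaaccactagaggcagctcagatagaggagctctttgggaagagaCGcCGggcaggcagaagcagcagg
The IL4R promoter held 42 CG dinucleotides, more than 94.2% of the 35116 promoters in the table. The IL21R promoter listed there, a gene that may have other starts, held 2, more than 11.0% of them. The 11 promoters ran from 2 to 43 with a median of 23, against a median of 14 over all promoters. The spaced STAT motif TTCNNNGAA, which reads the same on both strands, occurred in 0 of the 11 and in 7.66% of all promoters. The wider spacing TTCNNNNGAA, which STAT6 is known to prefer, was counted separately, also reads the same on both strands, can share bases with the first motif, and occurred in 0 of the 11 and in 6.44% of all promoters. These counts say only that the letters are not in these 11 promoter sequences.

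KMT2D peaks were densest in the IL4R, SOCS3, IL21R and SOCS1 windows, at 50 to 58.3 peaks per Mb, and sparsest in JAK1 and PTPN1, at 13.0 and 11.8. The 37 peaks gave 32.7 peaks per Mb (exact Poisson interval 23.1 to 45.1), against 8.44 per Mb over the spans of all chromosomes used, a ratio of 3.88 (exact conditional interval 2.73 to 5.35). At the densities of their own chromosomes the windows would hold 14.8 peaks, and the ratio was then 2.50. The windows were laid around chosen genes and the chromosome spans were not. They were not set beside windows around other genes, so whether either ratio is particular to these loci was not tested. Peaks covered 2.50% of the bases in the windows and 0.584% over the spans.

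**Figure D1:**
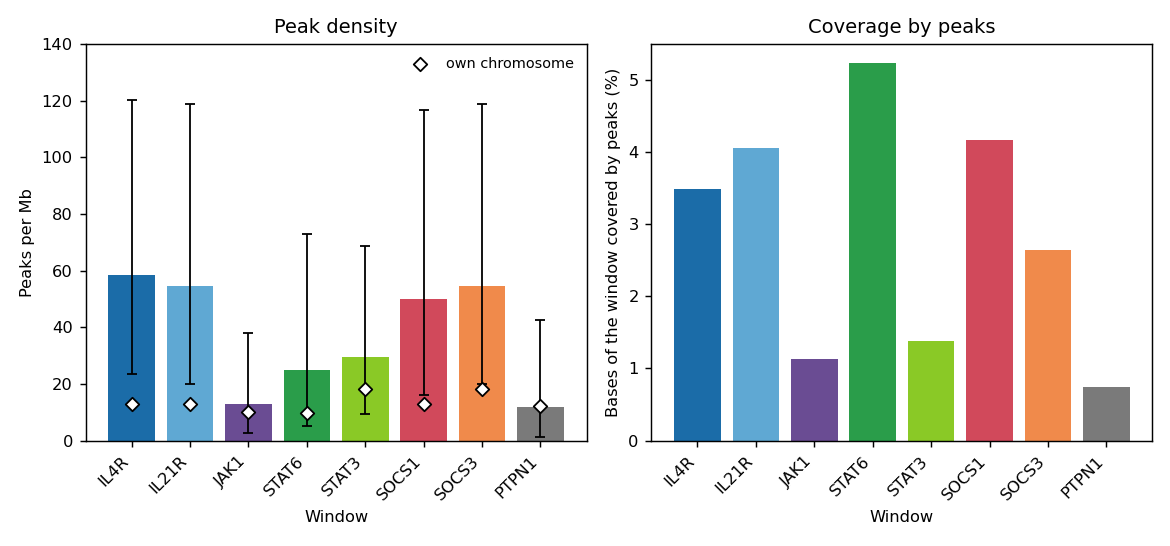
Left, peaks per Mb in each window (bars), with exact Poisson 95% intervals as error bars and the density of the window's own chromosome as diamonds. Right, percent of the window's bases covered by peaks; IL4R has the highest density at 58.3 peaks per Mb, while STAT6 has the highest coverage at 5.24%.

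In height the member peaks were ordinary. Their median was 43 (order-statistic interval 36 to 50) and their range 24 to 131, against a list median of 39 and an interquartile range of 27 to 59. Of the 37, 22 stood above the list median and 17 above the median of their own chromosome. A height in the highest 25% of the list, with ties (59 or more), was reached by 7 of the 37 (18.9%, exact binomial interval 7.96 to 35.2%), against 25.9% of all listed peaks. These 7 were 2 peaks each in the SOCS1 and SOCS3 windows and 1 each in those of STAT3, IL4R and PTPN1. The median width was 659 bp, against 609 bp over the list. Clusters, in which successive peaks are at most 12500 bp apart, held 26 of the 37 (70.3%, 53.0 to 84.1%) and 63.4% of all listed peaks. That interval treats the peaks as independent, which peaks of the same cluster are not, so it cannot decide whether these shares differ. With stitching at 5 kb the order turned, to 43.2% of members and 50.8% of the list.

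**Figure D2:**
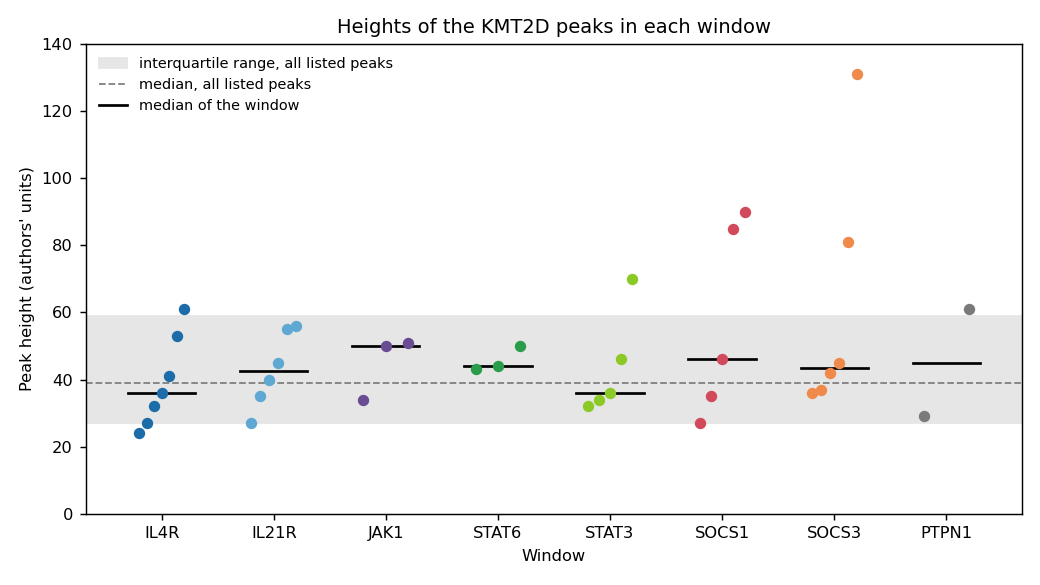
Height of each of the 37 member peaks in the authors' units, by window. Short black lines are window medians, the dashed line is the list median of 39 and the grey band is the list's interquartile range of 27 to 59; the peaks of 131, 90, 85 and 81, all from SOCS1 and SOCS3, stand above the rest.

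The receptor windows adjoin each other on chromosome 16 and held 7 and 6 peaks; SOCS3 also held 6, and with each side widened by 10 kb SOCS1 held the most, at 8. IL4R encodes the chain shared by the interleukin 4 and interleukin 13 receptors. Its window (27.28 to 27.4 Mb) held 7 peaks, with heights in chromosome order of 53, 27, 36, 61, 32, 24 and 41. Most were low: 4 of the 7 lay below the list median, and the window median of 36 was below the chromosome 16 median of 44. The tallest and widest peak, at 27324972 to 27325735, was 763 bp wide and taller than 70.5% of the peaks on chromosome 16. A stretch of 53.0 kb without a listed peak followed it, and then a cluster of 3 peaks at 27378728 to 27389697 with heights of 24 to 41. The first peak, at 27279729 to 27280466, straddled the start of the window. Among 24435 stretches of the same length laid end to end over all chromosomes, 3.36% held 7 or more peaks, or 9.59% of the 8572 stretches with at least 1 peak.

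IL21R encodes the chain that binds interleukin 21. Its window (27.4 to 27.51 Mb) held 6 peaks with heights in order of 35, 55, 27, 45, 40 and 56, and 3.96% of 26657 stretches of its length, or 11.9% of those with a peak, held 6 or more. A cluster of 3 peaks at 27410278 to 27417308 contained the widest, 1855 bp at 27413176 to 27415031. The tallest, at 27462096 to 27462821, was a lone peak of height 56. No peak of this window reached a height of 59. A gap of 20.6 kb separated the last IL4R peak from the first IL21R peak, close to the median gap of 19.3 kb between neighbouring peaks of the list. Together the receptor windows held 13 peaks over 230 kb, or 56.5 per Mb (30.1 to 96.7).

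JAK1, the kinase gene, has a window as long as both receptor windows together. Its window on chromosome 1 (65.25 to 65.48 Mb), also 230 kb, held 3 peaks of heights 50, 34 and 51. The receptor pair thus had 4.33 times the peak number of JAK1 (exact conditional interval 1.19 to 23.7) and 3.30 times its covered bases. That ratio sets the windows of IL4R and IL21R on chromosome 16 against the window of JAK1 alone. It is not adjusted for chromosome density, which was 12.8 peaks per Mb on chromosome 16. The windows were chosen with results known and the interval covers counting error only. In clusters were 5 of the 7 IL4R peaks, 5 of the 6 IL21R peaks and 2 of the 3 JAK1 peaks. The interval treats peaks as independent, which peaks of the same cluster are not, so it cannot decide whether the densities differ. JAK1's last peak, at 65431168 to 65432677, was its tallest and, at 1509 bp, its widest. A gap of 92.3 kb separated the first JAK1 peak from the second. The first, at 65329687 to 65330242, was itself the first peak after a stretch of 1269 kb without any, and only 1.64% of the 24749 gaps between neighbouring peaks in the list were longer. Of stretches of the length of the JAK1 window, 24.0% held 3 or more peaks (50.9% of those with a peak), and the JAK1 density of 13.0 per Mb (2.69 to 38.1) compared with 9.95 per Mb on chromosome 1.

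The window of STAT6, the transcription factor activated by interleukin 4, had few but wide peaks. This window on chromosome 12 (57.44 to 57.56 Mb) held 3 peaks. Of stretches of its length, 13.1%, or 37.3% of those with a peak, held 3 or more. The heights of the 3 STAT6 peaks were 50, 43 and 44 and their widths 962, 2902 and 2419 bp. The tallest was the first, at 57471837 to 57472799. The widest peak of all 37 was the second, at 57480253 to 57483155, and the third lay at 57504046 to 57506465. Peaks over 2000 bp numbered 2 of the 37 (5.41%, 0.661 to 18.2%), both in this window. The share over the list was 2.22%, which lies within that interval. Such width is rare at this height. Among the 1725 listed peaks within 2 units of height 43 the median width was 682 bp, and 99.8% were narrower than the STAT6 peak of 2902 bp. For the peak of 2419 bp the like-height share was 99.6%. Conversely, of the 549 listed peaks wider than 2000 bp, whose median height was 75, 3.64% were no taller than 44. With 3 peaks STAT6 had 5.24% of its window covered, the highest of the 8, whereas the 7 peaks of IL4R in an equally long window covered 3.48%.

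**Figure D3:**
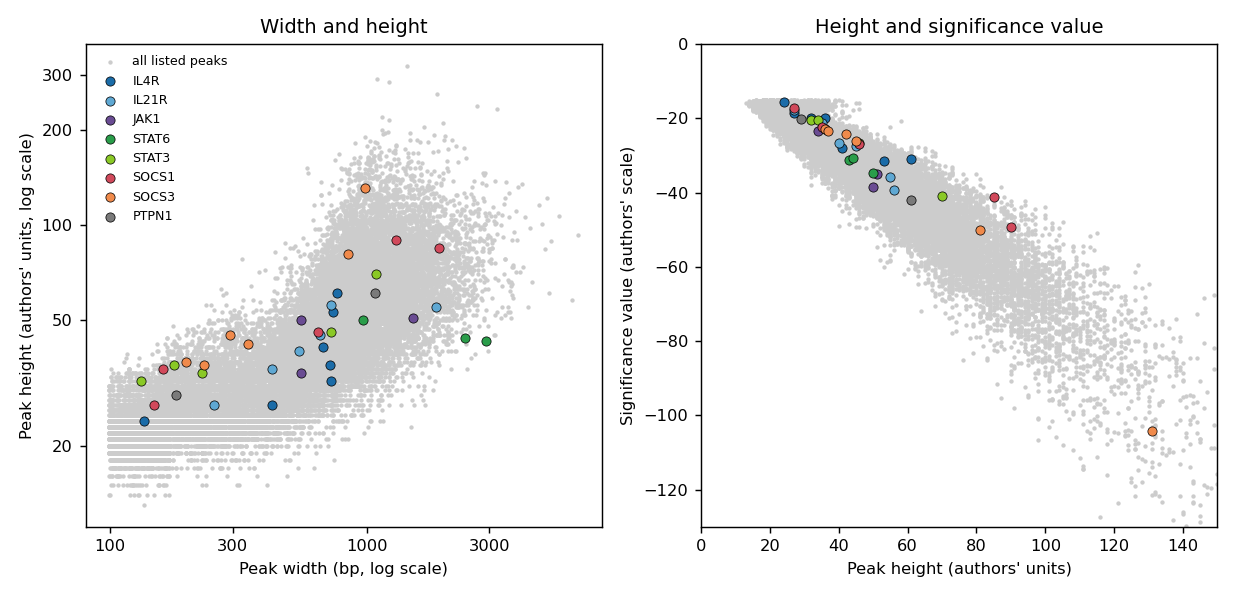
Left, width (horizontal axis) and height (vertical axis) of each listed peak (grey) and of the member peaks (coloured by window), both axes logarithmic; the STAT6 peaks of 2902 and 2419 bp lie at the lower right edge. Right, height (horizontal axis) and the authors' significance value (vertical axis), where the SOCS1 peak of height 85 and the IL4R peak of height 61 lie near the upper edge of the cloud. The axes end short of the tallest listed peaks, which are not drawn. Peaks with a significance value of minus infinity, 30 of all 24824 listed, are also left out of the right panel.

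STAT3, activated by interleukin 21 among other cytokines, sits between STAT5A, with STAT5B before it, and CAVIN1, with ATP6V0A1 after it, in the RefSeq gene order, and its window may hold parts of these neighbours. The window on chromosome 17 (40.42 to 40.59 Mb) held 5 peaks of heights 46, 70, 36, 32 and 34. One peak stood out, at 40539993 to 40541074, with a height of 70 and a width of 1081 bp, taller than 75.6% of the peaks on chromosome 17. It was preceded by 111 kb without a listed peak, the longest gap inside any of the 8 windows. A cluster of 3 narrow peaks at 40559390 to 40567397, of 132 to 228 bp, followed it. PTPN1's window has the same length of 170 kb and held 2 peaks, so STAT3 had 2.50 times as many, with an interval of 0.409 to 26.3 that includes 1. Of stretches of this length, 9.86% held 5 or more peaks, or 23.9% of those with a peak.

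The window of SOCS1, which binds Janus kinases and blocks their activity, had 2 of the 4 tallest member peaks. The SOCS1 window on chromosome 16 (11.3 to 11.4 Mb) held 5 peaks of heights 46, 85, 35, 27 and 90, and 5.01% of stretches of its length, or 15.9% of those with a peak, held 5 or more. The peak of 85, at 11348696 to 11350614, stood alone, 29.1 kb from the nearest other peak, and was the widest of the window at 1918 bp. The peak of 90, at 11390971 to 11392269, was taller than 93.3% of listed peaks and than 90.8% of those on chromosome 16. It belonged to a cluster of 6 peaks at 11388232 to 11405679, of which 3 were members. The other 3 had their highest points 2.94 to 5.01 kb past the window's end, with heights of 139, 80 and 52. The edge of the window therefore cut a cluster whose tallest peak, at 11402121 to 11403429, exceeded every member peak, and widening each side by 10 kb raised the SOCS1 count from 5 to 8.

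The window of SOCS3, which acts on both receptor tails and Janus kinases, had the tallest member peak of all. This window on chromosome 17 (76.3 to 76.41 Mb) held 6 peaks of heights 81, 36, 37, 45, 131 and 42. The peak of 131, at 76374259 to 76375246, was 987 bp wide and had the strongest significance value of the 37, at -104. Only 252 listed peaks were taller, and it stood above 97.8% of the peaks on chromosome 17. The peak of 81 lay before it, at 76333518 to 76334366, in a cluster of 4 that ended at 76352762. The last of these 4 was joined across 12.4 kb, just under the stitching distance. All 6 peaks were clustered, and the remaining 4 were 197 to 345 bp wide. By density and median height SOCS3 was most like IL21R: 54.5 peaks per Mb in each, as 6 peaks in 110 kb, and medians of 43.5 and 42.5. They differed in shape, since the tallest peak was 131 in SOCS3 and 56 in IL21R, while covered bases were 2.64% and 4.06%. As for IL21R, 3.96% of stretches of this length, or 11.9% of those with a peak, held 6 or more.

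The window of PTPN1, the phosphatase gene on chromosome 20, had the fewest peaks. This window (49.08 to 49.25 Mb) held 2, of heights 61 and 29, separated by 71.6 kb and both lone. The first, at 49126368 to 49127445, was 1077 bp wide and taller than 73.4% of peaks on chromosome 20. The density of 11.8 per Mb (1.42 to 42.5) was 0.973 times that of the chromosome, and 26.9% of stretches of its length, or 65.4% of those with a peak, held 2 or more. Only 0.740% of the window was covered, the lowest of the 8.

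**Figure D4:**
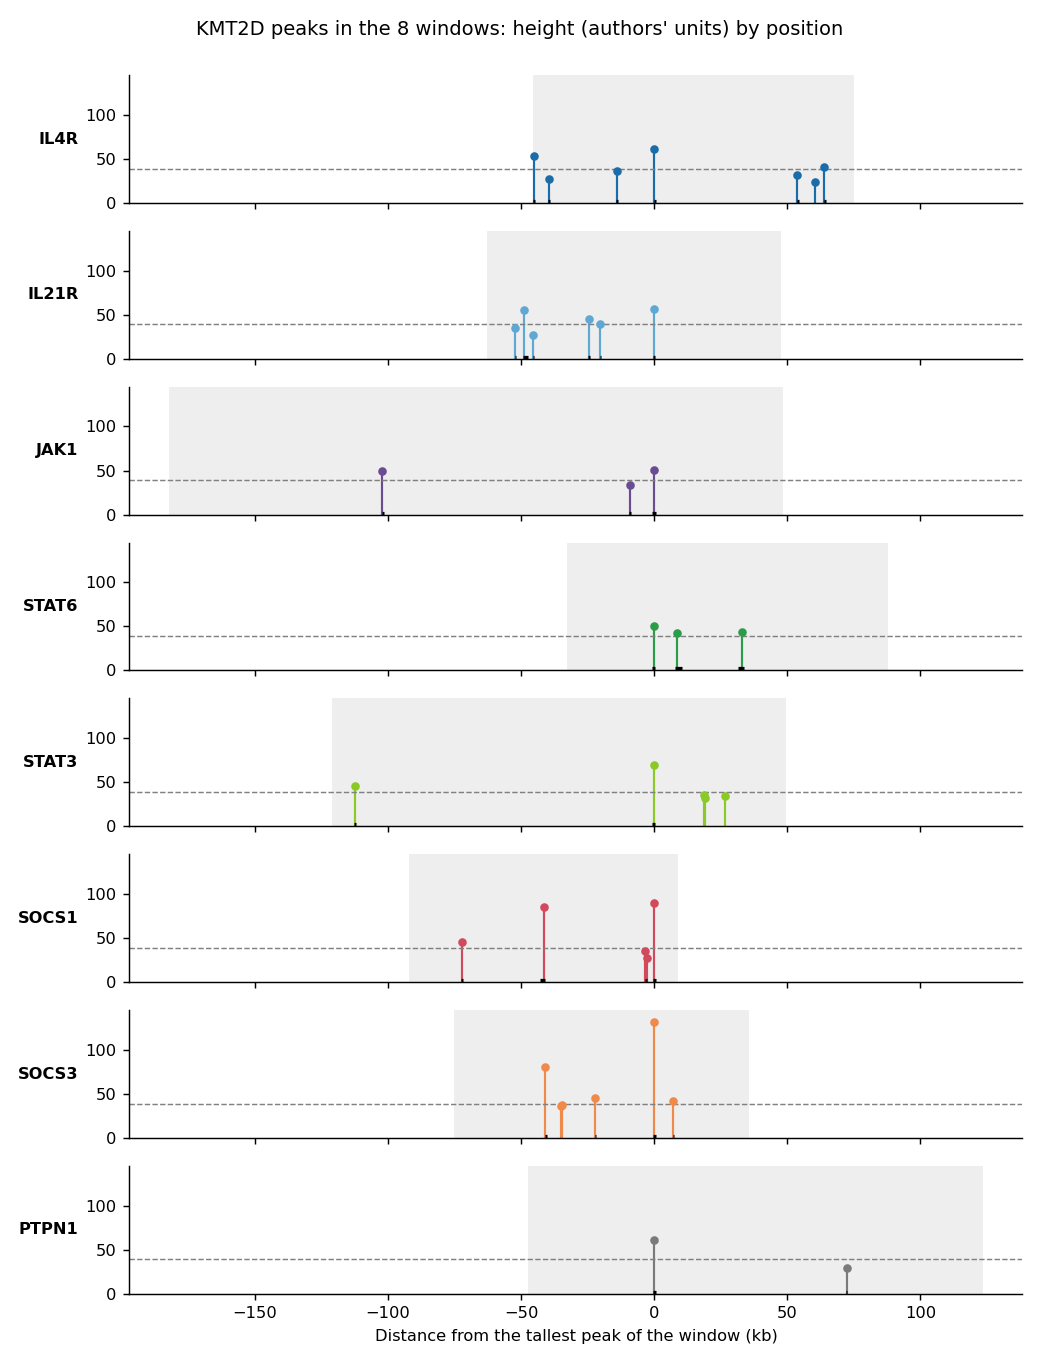
Position of each member peak relative to the tallest peak of its window (kb), with its height in the authors' units as the stem; grey marks the window, black bars on the axis mark peak widths and the dashed line the list median of 39. The longest gaps between peaks of a window are 111 kb in STAT3, 92.3 kb in JAK1, 71.6 kb in PTPN1 and 53.0 kb in IL4R.

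Closely spaced and narrow peaks were no more frequent among the members than in the list. A neighbour under 500 bp away was found for 6 of the 37 peaks (16.2%, 6.19 to 32.0%), against 27.3% of the list. They formed a pair each in SOCS1 (heights 35 and 27, 225 bp apart), SOCS3 (36 and 37, 101 bp apart) and STAT3 (36 and 32, 179 bp apart), all of 132 to 232 bp in width. Peaks of up to 200 bp numbered 7 of the 37 (18.9%, 7.96 to 35.2%), against 21.0% of the list.

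Most member peaks had weaker significance values than listed peaks of the same height. Of the 37 peaks, 33 had a weaker significance value than the median of listed peaks within 2 units of their height, where 49.5% of all listed peaks do. The same held for 91.2% of all peaks on chromosome 16 and 95.4% on chromosome 17, which carry 29 of the 37. Against like-height peaks of the same chromosome 18 of the 37 were weaker, near the 48.2% of the list. SOCS1 contributed 4 of its 5 and IL4R 5 of its 7, and STAT6 and PTPN1 contributed 0 of 3 and 0 of 2. The SOCS1 peak of height 85 had a value of -41.1, against a median of -53.2 for 19 peaks of like height on chromosome 16, that peak included, and none of them was weaker. The IL4R peak of height 61 had -31.0 against -37.7 for 55 such peaks, of which 3.64% were weaker. The SOCS3 peak of 131 went the other way, with -104 against -81.6 for 9 such peaks on chromosome 17. Copy number and input signal at these places were not analysed here, and their part was not tested.

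The highest point lay near the middle of most member peaks. It was at a median of 45.7% of the way from start to end, against 46.7% over the list, and 22 of the 37 fell within the list's interquartile range of 31.7 to 61.2%. Toward the start of the peak, IL4R peaks of heights 32 and 41 had it at 13.6% and 14.2%, and 1 IL21R peak had it nearer the start than either. Toward the end, the STAT6 peak of height 50 had it at 76.0%. Wider member peaks were taller: the rank correlation (Spearman) was 0.77 over all 37 and 0.82 over the 34 outside STAT6, against 0.84 over the list. The peaks share 1 library and 1 peak caller, so this describes the list and carries no test.

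Grouped by role, the receptor windows and the SOCS windows had the higher densities, at 56.5 per Mb (30.1 to 96.7) and 52.4 per Mb (26.1 to 93.7). Their intervals overlapped widely. The STAT windows had 27.6 per Mb (11.9 to 54.4), that of JAK1 had 13.0 and that of PTPN1 had 11.8. These densities are not adjusted for window length, which was 100 to 120 kb for the receptors and SOCS genes, 230 kb for JAK1 and 170 kb for PTPN1. As ratios to the density of the window's own chromosome, values were 4.56 in IL4R, 4.27 in IL21R, 3.91 in SOCS1 and 3.01 in SOCS3. They were 2.54 in STAT6, 1.62 in STAT3, 1.31 in JAK1 and 0.973 in PTPN1. Median heights differed little, from 40 in the receptor windows to 50 in that of JAK1. The tallest peak was 131 in the SOCS windows, 70 in the STAT windows, 61 in the receptor windows and that of PTPN1, and 51 in that of JAK1. Peaks were not assigned to genes: by RefSeq order the nearest protein-coding neighbours are CLEC16A and TNP2 for SOCS1, TMEM235 and PGS1 for SOCS3, NAB2 and LRP1 for STAT6, NSMCE1 for IL4R, GTF3C1 for IL21R, RAVER2 and AK4 for JAK1, and CEBPB and RIPOR3 for PTPN1, and a peak in a window may belong to any of them. Other genes of the pathway were not analysed here, because no hg19 annotation was used.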

How the data were processed

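Per the submitters' processing notes, positions are on hg19 and CASAVA 1.8.2 took part in the processing; aligner, caller, threshold and the role of the input are not given there. The authors deposited a single list of 24824 KMT2D peaks in 11 unnamed columns, whose content was inferred from the values. The deposited signal column was taken as peak height, and any normalization of it is not stated. The authors' score columns (a significance value, none above -15.0, and a positive score of unstated scale) and the deposited percent position of the highest point were used as given. Coordinates are printed as listed; whether they count from 0 or from 1 is not stated.

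Members and lists were chosen with earlier results of these data known. The text names all 8 genes and, by position, the tallest and widest peak of each window, every peak in the highest 25% of heights and every cluster of 3 or more member peaks. Only chromosomes 1 to 22 and X entered. Density is peaks divided by length, the length of a chromosome being the span from its first to its last peak. Stretches of each window's length were laid end to end over these spans. The functions were tested on simulated data. Other pathway genes had been planned only for an hg19 reference. The software was scipy 1.17.1, pandas 2.3.3, matplotlib 3.10.9 and numpy 2.4.6 under Python 3.11.15.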

Additional observations from a re-analysis of the deposited data

How the results depend on the processing

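Here a value "moved" if an alternative took it outside its 95% counting interval, or, for peak numbers, changed it more than 1.5 times. For the 5 summary values of the 8 windows, 30 of 40 alternative values stayed and 10 moved. Keeping the highest-scoring 50% of peaks left 19 member peaks of median height 53 and width 962 bp, with 26.3% of them in clusters (36.5% of all peaks kept). Keeping the highest-scoring 25% left 7, of median height 81 and width 1077 bp, with 14.3% in clusters (23.8% of all peaks kept); fewer peaks, and taller ones because score rose with height, follow from these cuts. By gene, these 7 were 2 each in the SOCS1 and SOCS3 windows and 1 each in those of STAT3, IL21R and PTPN1. Stitching at 5 kb put 43.2% of member peaks in clusters, against 50.8% of the list; a shorter distance can only lower both. The clustered share of members thus lay below that of the list under these 3 settings. It lay above in the main setting and under every other alternative run for it, such as stitching at 25 kb (83.8% against 73.7%). Density set against each window's own chromosome gave a ratio of 2.50 in place of 3.88. Of the other alternatives run for that ratio, values ran from 2.93 (highest-scoring 25%) to 4.72 (common minimum height of 26). Narrowing the windows by 10 kb on each side left 33 member peaks, widening them gave 41, and the SOCS1 count alone moved, from 5 to 8. Placing peaks by any overlap changed no count. The percentile of each window's tallest peak was lower within its own chromosome in all 8 windows. No paired analysis was possible because each group has 1 library. Because the read depth is unknown, a stretch with no peak in the list may still hold KMT2D.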
